A study of Cervus nippon with 12 samples.

Results

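Antler chondrocytes (CC) were compared with reserve mesenchyme cells (RMCs) on day 7 of chondrogenic induction (CP_7), the middle of the time course. The comparison takes the 3 CC and the 3 CP_7 libraries, 6 of the 12 small RNA libraries of the series, chosen by their labelled group, and all 545 listed miRNAs. The names are those of cattle (bta-) for 475 of them, and the other 70 are numbered under novel_. The cells came from the antler of wild-type (WT) sika deer, and the study describes the deer as males 3 years old. RMCs were grown in DMEM with serum, placed in tubes and given chondrogenic medium for 0 days (CP_0), 7 days (CP_7) or 14 days (CP_14), with 3 libraries per day. CC are cells labelled chondrocyte. The CP_0 and CP_14 libraries serve here as points from which the distance of CP_7 to CC is read. The question of the comparison is how far the miRNA profile of mid-induction cells lies from that of the cell type they are led toward. The labels do not say how the chondrocytes were cultured. The study collected antler tips of 6 deer and speaks of 3 biological replicates per type of tissue. The labels do not say which animal or culture a library came from, so that p-values measure the spread between these libraries only.

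MicroRNAs are short RNAs that guide Argonaute proteins to messenger RNAs and lower their translation or stability. In cartilage, miR-140 is the best known example, as it lies in an intron of WWP2, is switched on with SOX9 and is needed for normal growth of the skeleton, and miR-455, in an intron of COL27A1, is expressed in the same tissue. The antler is a bone that male deer regrow every year from a mesenchyme which forms cartilage before it ossifies, and RMCs are the cells at its tip from which the chondrocytes arise.

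The libraries differed more than 10-fold in depth. The CC libraries held 10256572, 9714090 and 9970138 reads on listed miRNAs and the CP_7 libraries 769655, 1032029 and 539455, so that CC was 9.41 to 19.0 times deeper over the pairs of libraries and 12.8 times by the group means. A single read was worth 0.0975 to 0.103 RPM (reads per 1000000 reads on listed miRNAs) in CC and 0.969 to 1.85 RPM in CP_7. A miRNA with 0 reads may therefore still be present at up to 0.293 to 0.309 RPM in CC and at up to 2.91 to 5.56 RPM in CP_7, the level of 3 reads. These limits, like the Poisson intervals below, cover counting error only, since the reads carried no molecular identifiers and need not come from independent molecules. At least 1 read was found for 386, 381 and 393 miRNAs in CC and for 351, 367 and 342 in CP_7. With every library thinned to 539455 reads the order turned round, with 252, 255 and 263 miRNAs in CC and 331, 335 and 342 in CP_7. That thinning matched all reads but left 124264, 131742 and 146564 reads on miRNAs besides miR-21-5p in CC, as against 407918, 410404 and 424259 in CP_7. With the reads besides miR-21-5p thinned to 424259 in each library, a choice made after seeing the data, 313, 308 and 309 miRNAs were found in CC and 336, 343 and 341 in CP_7.

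The libraries also differed in composition, with miR-21-5p in the lead, a miRNA abundant in cultured and growing cells. It took 76.9%, 75.7% and 72.9% of the reads in CC and 24.4%, 23.9% and 21.4% in CP_7. All 3 CC libraries lay far above all 3 CP_7 libraries (exact two-sided permutation test, p = 0.1, the smallest that 3 libraries against 3 allow). All other miRNAs together were left with 24.8% ± 2.04 (SD, n = 3) of the reads in CC and 76.8% ± 1.62 in CP_7. Any miRNA whose part of these other reads was unchanged therefore took a smaller share of all reads in CC. TMM factors scale the libraries by a trimmed mean of the log ratios between them. They were 0.618 ± 0.042 (SD, n = 3) in CC and 1.62 ± 0.10 in CP_7. Levels below are TMM-normalized RPM unless stated. They are relative levels, since in bulk samples fewer cells of a type and less RNA per cell cannot be told apart. By group mean the next most abundant miRNAs were the same in both groups, namely miR-143, let-7i, miR-148a and miR-27b, and with miR-21-5p in the lead the 5 most abundant miRNAs of each library took 88.5% ± 0.745 (SD, n = 3) of the reads in CC and 67.3% ± 0.922 in CP_7.

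Chondrocytes and day 7 cells differed broadly. Chondrocytes had more miR-21, more miR-140, more of the miR-17 to miR-92 family and more miR-100. The red blood cell miRNAs miR-451 and miR-486 were far higher in them. Both were also high in the CP_14 libraries and in CP_0 replicate 3. Day 7 cells had more miR-221, more of the miR-181 and miR-29 families, more miR-199a-3p and more miR-210. Several small RNAs that hardly occurred in chondrocytes were also higher there. With TMM 7 of 10 let-7 members were higher in day 7 cells too. Without CP_7 replicate 2 only 3 were, and 1 was higher in chondrocytes. Of the 276 miRNAs that passed the filter on low reads, 80 (29%) were higher in CC and 106 (38.4%) were lower by limma at an adjusted p below 0.05, and 90 were not called. By at least 2-fold, 52 were higher and 80 lower, and 54 of the 186 calls were smaller than that. The values of the CC and CP_7 libraries did not overlap for 195 of the 276 (70.7%). A further measure was closeness, where the 95% interval of the log2 difference lies within -1 to 1, and 68 miRNAs (24.6%) were close in this sense, 26 of them also called as different. The remaining 48 were neither called nor close. The median log2 difference of CC minus CP_7 over all 276 was -0.09. The counts are of names. With names that share their reads within 1%, at a mean of at least 10 reads over the 12 libraries, taken as 1 miRNA and the filter applied anew, 80 of 273 were higher and 100 lower. The rarer names miR-1814c and miR-2310, which also share all their reads, stayed apart there, and neither was called.

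The balance of higher and lower calls depended on the scaling, on the reads required and on the libraries used. Against 80 higher and 106 lower with TMM, library size only gave 20 and 191, and upper-quartile factors gave 116 and 77. The median of all miRNAs moved from -0.09 to 0.07 with RLE factors, to 0.40 with upper-quartile factors, to 0.15 with library sizes that leave out miR-21-5p, to 0.18 with TMM factors over all 12 libraries and to -1.44 with library size only. The calls were compared over TMM, RLE, upper-quartile, the library size without miR-21-5p and the 12-library factors. The same 80 miRNAs were called higher each time and 77 of the 106 were called lower each time. With library size only added, 20 and 77 were left. Over TMM and each library left out in turn, with 224 to 300 miRNAs tested, 59 were called higher and 48 lower each time. With the filter applied anew, there were 120 higher and 68 lower of 300 without CP_7 replicate 2, 94 and 66 of 298 without CP_7 replicate 1 and 95 and 84 of 299 without CP_7 replicate 3. Of the 276, 272 were also tested without CP_7 replicate 2, and among these 110 were higher and 65 lower. Their median was 0.41 in that fit. The main filter scales its minimum count to library size, so that fewer reads sufficed in CP_7 than in CC. With all 6 libraries and a mean of 50 reads required, 75 of 200 were higher and 67 lower, with a median of 0.10.

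**Figure D1:**
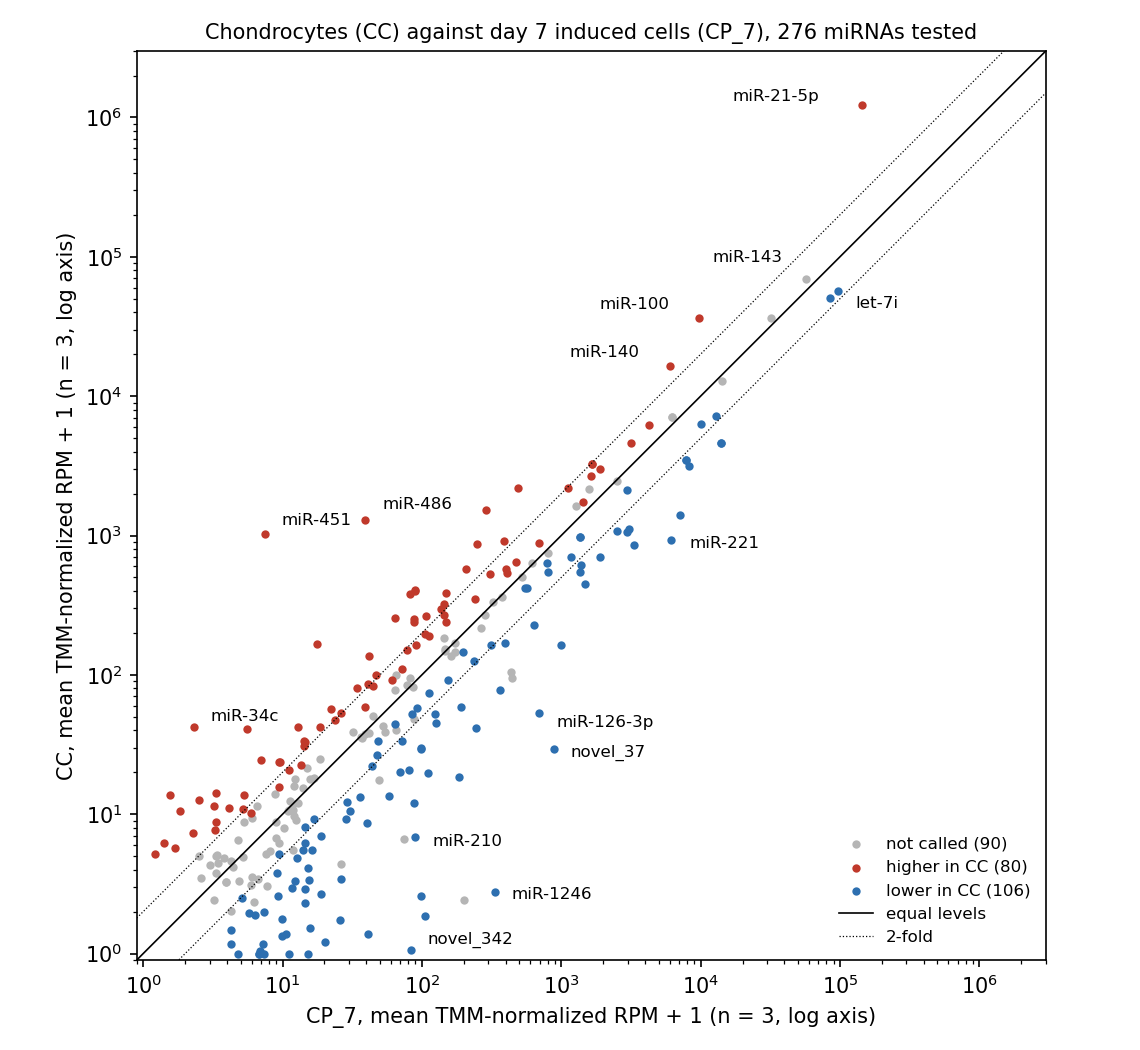
Mean level in CC (vertical axis) against mean level in CP_7 (horizontal axis) of the 276 miRNAs tested, each as TMM-normalized RPM plus 1 over 3 libraries on log axes, where a point is a miRNA, red marks the 80 called higher in CC, blue the 106 called lower and grey the 90 not called, under TMM scaling. The solid line marks equal levels and the dotted lines 2-fold, and miR-21-5p stands above all other miRNAs in both groups.

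The cartilage miRNAs did not move as a block. The level of miR-140 was 16721, 16453 and 16502 in CC and 5989, 5832 and 6208 in CP_7. All CC libraries lay above all CP_7 libraries, and the log2 difference was 1.46 (adjusted p = 1.93e-06 by limma, standard error 0.057). It was also higher in CC than in CP_0 and CP_14. The 12-library levels of miR-140 were 11140.0, 10815 and 10312 in CP_0 and 9598, 9868 and 9987 in CP_14. With TMM on the 12-library factors miR-140 was thus highest in the cells labelled chondrocyte, while the CC levels above are on the factors of the 6 libraries. Its differences of CC from CP_0 and from CP_14 were not tested here. As a share of all reads, however, miR-140 took 1.02% ± 0.0676 (SD, n = 3) in CC and 0.976% ± 0.0921 in CP_7 (exact two-sided permutation test, p = 0.5), and with library size only its log2 difference was 0.07. Once the reads of miR-21-5p were set aside, its share was 4.13% ± 0.155 in CC and 1.27% ± 0.0938 in CP_7. The 5p arm of miR-455 stood at 549, 527 and 502 in CC and 319, 331 and 276 in CP_7, again without overlap, and differed by 0.77 (adjusted p = 0.000355 by limma, standard error 0.095), but with library size only it was lower in CC (-0.62). The 3p arm went the other way, with 54.2, 48.5 and 51.9 in CC and 85.9, 90.5 and 76.7 in CP_7. Its log2 difference of -0.70 (adjusted p = 0.00276 by limma, standard error 0.13) was lost with upper-quartile factors (-0.18) and when any 1 of the CP_7 libraries was left out.

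Both arms of miR-21 were higher in CC. The 5p arm reached 1295500.0, 1274400.0 and 1093100.0 in CC and 154800.0, 154200.0 and 122730.0 in CP_7, an 8.51-fold difference with a log2 value of 3.09 (adjusted p = 2.3e-06 by limma, standard error 0.13), and it was called higher under every scaling, between 1.70 with library size only and 3.61 with upper-quartile factors. Levels above 1000000 arise because the factors of CC are below 1. The 3p arm is the rare strand, with 168, 191 and 235 reads in CC and 20, 26 and 7 in CP_7. Its log2 difference was 1.26 (adjusted p = 0.0108 by limma, standard error 0.32), and it was -0.05 with library size only, not called. The strands of this hairpin were thus both higher in CC relative to most miRNAs, the abundant one by more.

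Of the pair miR-143 and miR-145, which come from 1 primary transcript and are known from smooth muscle and other mesenchymal cells, miR-143 was close between the groups. It stood at 60151, 72926 and 76217 in CC and 53506, 54517 and 64420.0 in CP_7, where the lowest CC library lay below the highest CP_7 library, with a log2 difference of 0.28 (adjusted p = 0.0762 by limma, standard error 0.12). It was not called with TMM but was called higher in CC with the RLE, upper-quartile and 12-library factors and with the library size without miR-21-5p, up to 0.80 with upper-quartile factors, and without CC replicate 1, CP_7 replicate 2 or CP_7 replicate 3, and lower with library size only (-1.11). The level of miR-145 was 788, 696 and 606 in CC and 1331, 1365 and 844 in CP_7. The groups did not overlap, with CP_7 replicate 3 nearest to CC, and miR-145 was lower in CC, with a log2 difference of -0.73 (adjusted p = 0.0138 by limma, standard error 0.20). That call was lost with RLE factors (-0.57), with upper-quartile factors (-0.21), with the library size without miR-21-5p (-0.49), with the 12-library factors (-0.46) and without CC replicate 3, CP_7 replicate 1 or CP_7 replicate 2, and as each library was left out it ran from -0.83 to -0.03.

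The other leading miRNAs were let-7i, miR-148a and miR-27b. The let-7 family, which rises with differentiation in many tissues, was mostly lower in CC: of 10 members tested, 7 were called lower and 0 higher, with a median log2 difference of -0.72, beside 106 of 276 (38.4%) lower and a median of -0.09 over all miRNAs. With upper-quartile factors 4 were lower and 2 higher, and without CP_7 replicate 2 only 3 were lower and 1 was higher. Its most abundant member let-7i stood at 59157, 57665 and 54168 in CC and 102530.0, 107880.0 and 82365 in CP_7, without overlap, and differed by -0.77 (adjusted p = 0.00083 by limma, standard error 0.11). Without CP_7 replicate 1 or CP_7 replicate 2 it was no longer called. The largest difference in the family was that of let-7c (-1.70), at 449 ± 31.8 (SD, n = 3) in CC and 1476 ± 274 in CP_7, and it was kept whichever library was left out. By contrast let-7f (-0.12) and miR-98 (-0.08), which share the let-7 seed, were close, and both were above 0 with each of the other scalings but library size only, up to 0.40 and 0.44 with upper-quartile factors, where they were called higher.

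With TMM, the family of miR-148 and miR-152 was mostly lower in CC by less than 2-fold. Of 5 names 4 were called lower, beside 38.4% over all miRNAs, 4 were close and the median log2 difference was -0.47. With upper-quartile factors 0 were lower and 1 was higher (median 0.05). The counts were the same without CP_7 replicate 2 (median 0.03). With the library size without miR-21-5p 1 was lower and 1 higher, and with the 12-library factors 2 were lower and 1 higher. The names miR-148c and miR-152 share their reads within 1% and are both among the 5. The abundant member miR-148a, known for targeting DNMT1, stood at 49840.0, 51184 and 50364 in CC and 88332, 93003 and 74637 in CP_7, all CP_7 libraries being higher, and was both called lower and close (log2 difference -0.75, adjusted p = 0.000383 by limma, standard error 0.094). With upper-quartile factors it was not called (-0.23), and neither was it without CP_7 replicate 1 or CP_7 replicate 2. Its relative miR-148b was not called, at 332, 322 and 339.7 in CC and 331, 321 and 325 in CP_7, with a log2 difference of 0.02. The level of miR-27b was 33040.0, 37230.0 and 39747 in CC and 29160.0, 29721 and 37358 in CP_7, an overlap of CC and CP_7, and it was close (log2 difference 0.20, adjusted p = 0.186 by limma, standard error 0.12), although called higher with the RLE, upper-quartile (0.72) and 12-library factors, with the library size without miR-21-5p and without CP_7 replicate 2, and lower with library size only (-1.19).

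Among the groups higher in chondrocytes, the miR-17 to miR-92 clusters stood out. They include the polycistron around miR-17, a direct target of MYC that promotes cell cycle entry, and its paralogs. Of 15 listed members 12 were tested, 11 were called higher and none lower, with a median log2 difference of 1.85, beside 80 of 276 (29%) higher and 38.4% lower over all miRNAs. Among the 11, miR-363, miR-17-3p and miR-19a passed the filter only through CC, so that the count does not describe all members. The same 11 to 0 was found under every scaling except library size only, where 6 were higher and 2 lower, beside 20 and 191 of the 276. MiR-19b had 1159, 951 and 952 reads in CC and 25, 37 and 6 in CP_7, at levels of 190.3, 165 and 143 in CC and 20.7, 23.1 and 6.39 in CP_7, and was higher by 3.40 (adjusted p = 0.000452 by limma, standard error 0.44). MiR-18a stood at 41.5, 38.1 and 40.9 in CC and 4.13, 6.24 and 3.20 in CP_7 and was higher by 2.94 (adjusted p = 6.87e-05 by limma, standard error 0.26). In both cases every CC library exceeded every CP_7 library several times over, though lack of overlap was a condition of picking them. MiR-19a was lower in abundance, with 65, 77 and 72 reads in CC and 2, 3 and 1 in CP_7, and higher in CC by 2.33. The members with the seed of miR-17 were higher by 2.20 (miR-93), 1.84 (miR-20a), 1.501 (miR-17-5p) and 1.23 (miR-106b). Of the members with the seed of miR-92, miR-25 was higher by 0.54 and miR-92a by 0.34, both close and both called lower with library size only, and miR-92b was not called. The rare miR-363, with 28, 21 and 28 reads in CC and 0, 1 and 0 in CP_7, was higher by 2.13.

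Over all miRNAs 29% were higher and 38.4% lower, as stated, and some other groups had a larger share of higher members. On the X chromosome of mammals, the cluster of miR-532, miR-660 and miR-500 had 4 of 5 tested members called higher, among them miR-532 at 901, 932 and 923 in CC and 372, 398 and 396 in CP_7 (log2 difference 1.24, adjusted p = 7.3e-06 by limma, standard error 0.069). The X-linked cluster of miR-424, miR-503, miR-450 and miR-542 had 3 of 5 higher, with miR-450b at 196 ± 8.10 in CC and 105 ± 27.3 in CP_7. With library size only, neither cluster had a member called higher. Of the family of miR-99, miR-100 and miR-125, members of which lie in clusters with let-7 genes, 3 of 5 tested were higher and 1 was lower. MiR-100 was the largest of these, at 35823, 36480.0 and 37493 in CC and 9388, 9557 and 10352 in CP_7, and its log2 difference of 1.91 (adjusted p = 1.22e-06 by limma, standard error 0.065) was tighter than most. Its near twin miR-99a-5p, which has the same seed, went the other way (-1.40), with 3132 ± 127 in CC and 8252 ± 244 in CP_7. With library size only, 1 of the 5 was higher and 4 were lower. MiR-30e-5p was the extreme of the miR-30 family, at 1618, 1619 and 1323 in CC and 340.4, 289.5 and 228 in CP_7, and was higher by 2.42 (adjusted p = 1.5e-05 by limma, standard error 0.16), whereas miR-30b-5p was lower (log2 difference -2.22), so that 2 of the 6 members were higher and 2 lower, as against 1 and 5 with library size only and 4 and 2 if upper-quartile factors were used. MiR-1296 was rare, with 58, 56 and 61 reads in CC and 3, 0 and 0 in CP_7. Its pooled level was 11.8 times that of CP_7 (95% exact Poisson interval 3.98 to 57.9), with adjusted p = 0.0026 by limma.

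Among the miRNAs higher in chondrocytes, the largest difference was that of miR-451. This erythroid miRNA had 6619, 6293 and 6119 reads in CC and 8, 17 and 2 in CP_7, which gave levels of 1087, 1091 and 919.7 in CC and 6.61, 10.6 and 2.13 in CP_7 and a log2 difference of 7.31 (adjusted p = 1.06e-05 by limma, standard error 0.44). MiR-486, abundant in red blood cells and muscle, had 8345, 7885 and 7706 reads in CC and 9, 133 and 23 in CP_7. It was higher by 5.63 (adjusted p = 0.00046 by limma, standard error 0.74), with a wide spread among the CP_7 libraries. MiR-34c, a p53 target of the miR-34 family, had 249, 265 and 248 reads in CC and 4, 1 and 0 in CP_7 and differed by 4.46 (adjusted p = 0.000269 by limma, standard error 0.52). MiR-200a, known from epithelia, had 82, 77 and 76 reads in CC and 0, 1 and 1 in CP_7, and its pooled level was 23.8 times that of CP_7 (95% exact Poisson interval 6.52 to 198; adjusted p = 0.000167 by limma). No CP_7 library reached a CC library for any of these 4, but lack of overlap, found for 195 of the 276 (70.7%), was a condition of picking them. MiR-34c and miR-200a were too scarce in CP_7 to pass the filter other than through CC.

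These 4 and miR-182 had a further trait. Their reads were nearly the same number in 7 libraries, those of CC, those of CP_14 and CP_0 replicate 3, by the rule of at least 20 reads in each and a highest number at most 1.5 times the lowest, although the depth of these libraries ran from 2791559 to 10256572 reads. MiR-451 had 6039 to 6933 reads in each of the 7, miR-486 had 7363 to 8345, miR-34c 223 to 295, miR-182 94 to 112 and miR-200a 74 to 82. In CP_0 replicates 1 and 2, miR-451 had 27 and 29 reads, miR-486 7 and 20, miR-34c 49 and 47, miR-182 13 and 13 and miR-200a 35 and 41. In the CP_7 libraries miR-182 had 7, 4 and 24. Outside the rule, some rarer miRNAs had a like pattern with more spread. MiR-363, 1 of the 11 higher members of the miR-17 to miR-92 clusters, had 21 to 40 reads in the 7 libraries and 0 in CP_0 replicates 1 and 2, miR-142-5p had 48 to 86 as against 9 and 6, and miR-223 had 10 to 19 as against 0 and 1. In RPM the level of the 5 thus varied inversely with depth among those 7 libraries, and what part this plays in the differences from CP_7 was not tested. With these 5 left out, a choice made after seeing the data, 81 miRNAs were higher and 102 lower.

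Day 7 cells had more miR-221 and more of the miR-181 and miR-29 families. MiR-221, which lowers the cell cycle inhibitor p27, stood at 922, 963 and 906 in CC and 6220.5, 6440.0 and 5684 in CP_7, and the log2 difference was -2.71 (adjusted p = 7.65e-07 by limma, standard error 0.071). The separation between groups was many times the spread within them. Its cluster partner miR-222, at 609 ± 66.5 in CC and 1389 ± 193 in CP_7, was lower (log2 difference -1.18), a call lost without CP_7 replicate 1 or CP_7 replicate 2. All 4 members of the miR-181 family were lower under each scaling, with a median of -2.18 with TMM, beside 106 of 276 lower over all miRNAs with TMM and 191 with library size only. Of these, miR-181c lost its call without CC replicate 1, CP_7 replicate 2 or CP_7 replicate 3, where the difference came down to -1.19 at the least, and the median was -1.56 without CP_7 replicate 2. MiR-181d was the extreme, with 49, 86 and 68 reads in CC and 125, 137 and 67 in CP_7, and differed by -2.89 (adjusted p = 7.56e-05 by limma, standard error 0.26). The miR-29 family, which represses collagens and other matrix genes, had 4 of 4 tested members lower under each scaling, beside the same counts over all miRNAs, with a median of -1.33. Its main member miR-29a stood at 1096, 1084 and 1064 in CC and 2488, 2539.5 and 2568 in CP_7, -1.23 (adjusted p = 3.17e-06 by limma, standard error 0.057). Among the rarer members, miR-29c lost its call without CP_7 replicate 2 and miR-29d-5p without CP_7 replicate 1 or CP_7 replicate 2. Without CP_7 replicate 2 the miR-29 median was -0.70, with 2 of 4 lower. Over the scalings it ran from -2.64 with library size only to -0.84 with upper-quartile factors.

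The cluster of miR-199, miR-214 and miR-3120, transcribed in mesenchyme, was split. Of 7 names tested, 4 were lower and 3 higher, beside 38.4% and 29% over all miRNAs, where miR-199a-3p and miR-3604 are names for the same reads, and with library size only 6 were lower and 0 higher. MiR-199a-3p stood at 4355, 4702 and 4846 in CC and 13409, 13824 and 14583 in CP_7 and was lower in CC (log2 difference -1.59, adjusted p = 2.3e-06 by limma, standard error 0.069). The opposite arm miR-199a-5p was higher (0.54), with 4618 ± 316 in CC and 3166 ± 231 in CP_7, as were miR-214 (1.18) and miR-3120 (0.93), which comes from the strand opposite to miR-214. MiR-199c was lower (log2 difference -2.53). The arms of miR-27a also parted: miR-27a-3p was lower in CC (-2.34), at 1413 ± 214 in CC and 7153 ± 1242 in CP_7, while miR-27a-5p was higher (2.21), at 408 ± 6.99 in CC and 88.2 ± 14.5 in CP_7. Over the clusters of miR-23, miR-27 and miR-24, 3 of 8 were higher and 3 lower, and with library size only 1 and 7.

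MiR-210, the miRNA most firmly tied to hypoxia through HIF, was far lower in CC. It had 37, 24 and 48 reads in CC and 105, 157 and 77 in CP_7, which gave levels of 6.07, 4.16 and 7.21 in CC and 86.7, 97.96 and 82.0 in CP_7 and a log2 difference of -3.74 (adjusted p = 1.06e-05 by limma, standard error 0.23). Of the inflammation list, miR-155, known from activated immune cells, stood at 944, 842 and 758 in CC and 3608, 3965 and 2427 in CP_7 and was lower (log2 difference -1.95, adjusted p = 0.000105 by limma, standard error 0.19). MiR-147 was also called lower (-0.80), a call lost without any 1 of the CP_7 libraries, without CC replicate 1 or CC replicate 2, with the upper-quartile (-0.30) and 12-library (-0.53) factors and with the library size without miR-21-5p (-0.58), and miR-146b was not called. MiR-184 stood at 15.9, 19.4 and 17.6 in CC and 169, 198 and 189 in CP_7, with tight values in both groups, and was lower in CC, with a log2 difference of -3.32 (adjusted p = 2.3e-06 by limma, standard error 0.14). MiR-155 and miR-184 kept their direction and call under each scaling, and so did miR-210.

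Among the imprinted and muscle miRNAs that passed the filter, more were called lower in chondrocytes than higher. The DLK1-DIO3 cluster is expressed from the maternal chromosome. Of its 45 listed members only 18 were tested, of which 13 were lower and 1, miR-411a (1.01), was higher, with a median of -1.75, beside 106 of 276 (38.4%) lower over all miRNAs. The summed level of the cluster was 122.5, 133.2 and 136.5 in CC and 1174, 238.4 and 268.5 in CP_7, where replicate 1 stood far above the others. MiR-370, which was not called, had 709, 3 and 13 reads in CP_7. The neural names below also stood out in CP_7 replicate 1, with sums of 2240, 230.9 and 214.1 in CP_7. A link between the 2 was not tested. A miRNA scarce in CC could pass the filter only through CP_7, so the tested members are not all members. Their count of lower calls therefore does not describe the whole cluster. The largest difference among the called members was that of miR-543 (-3.50, standard error 0.76), with 1, 0 and 3 reads in CC and 52, 6 and 10 in CP_7. With RLE factors, with upper-quartile factors and with the library size without miR-21-5p 10 were lower. With the 12-library factors 12 were lower and with library size only 17, where 0 were higher. At equal total depth 1 of 3 members tested was called lower. Without CP_7 replicate 2, with the filter applied anew, 11 of 22 were lower and 1 was higher. Of the muscle list, 4 of 6 were lower: miR-1 at 1119 ± 47.7 in CC and 3058 ± 849 in CP_7 (-1.42), miR-133a (-1.65), miR-133b (-2.24) and miR-499 (-2.83). The call of miR-133b was lost without any 1 of the CC libraries, without CP_7 replicate 2 and without CP_7 replicate 3. Without CP_7 replicate 2, 3 of 6 on the muscle list were lower, with a median of -0.87. MiR-206 was spread too widely among the CP_7 libraries to call, with 39, 32 and 34 reads in CC and 263, 7 and 0 in CP_7.

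Among the deepest deficits in chondrocytes were those of small RNAs, most of them with few reads in CC. MiR-1246, whose sequence matches U2 small nuclear RNA and which may not be a canonical miRNA, had 8, 14 and 10 reads in CC and 335, 443 and 414 in CP_7, at levels of 1.31, 2.43 and 1.503 in CC and 277, 276 and 441 in CP_7. Its log2 difference was -6.90 (adjusted p = 1.93e-06 by limma, standard error 0.26), and miR-1248, derived from a small nucleolar RNA, differed by -3.88. For novel_342 there were 0, 1 and 0 reads in CC and 99, 166 and 58 in CP_7. With a single read in CC, its pooled level in CP_7 was 1590 times that of CC (95% exact Poisson interval 284 to 63100), while the fitted log2 difference of -6.27 depends on the pseudocount. More reads were found in CC for novel_37, with 175, 189 and 160. At 28.7, 32.8 and 24.0 in CC and 952, 982 and 735 in CP_7, its log2 difference was -4.91 (adjusted p = 1.22e-06 by limma, standard error 0.16). MiR-2904 had 10, 1 and 5 reads in CC and 120, 122 and 128 in CP_7 and was lower in CC (log2 difference -5.86). All CP_7 values lay above all CC values for each of these 5, and 195 of the 276 miRNAs (70.7%) did not overlap. Except for miR-1248, lack of overlap was a condition of picking them. All but novel_37 were too scarce in CC to pass the filter other than through CP_7. Each of the 5 was called lower in CC under each scaling.

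For other miRNAs the CP_7 libraries differed widely among themselves. MiR-139 had 11, 10 and 8 reads in CC and 292, 63 and 10 in CP_7, which gave 1.81, 1.73 and 1.20 in CC and 241, 39.3 and 10.7 in CP_7. CP_7 replicate 1 was far above CP_7 replicate 3, and the log2 difference was -4.24 (adjusted p = 0.00729 by limma, standard error 0.99), ranging from -5.01 to -2.78 as each library was left out. MiR-126-3p, the endothelial miRNA in EGFL7, had 282, 330 and 357 reads in CC and 143, 333 and 1658 in CP_7. At 46.3, 57.2 and 53.7 in CC and 118, 208 and 1766 in CP_7, the high mean of CP_7 rested on replicate 3, and the call (log2 difference -2.73, adjusted p = 0.0321 by limma, standard error 0.91) was lost with upper-quartile factors, with the library size without miR-21-5p and without CP_7 replicate 2 or any 1 of the CC libraries.

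Some miRNAs were seen in 1 of the groups only. Of the 545, 368 had reads in both groups, 75 in CC only, 62 in CP_7 only and 40 in neither. Despite the lower depth of CP_7, 20 of the 62 had more than 3 reads there. The most abundant was novel_420, with 51 reads in CP_7 and 0 in CC, at least 83.9-fold higher in CP_7 against a floor of 3 reads over the CC libraries. It was followed by miR-2889 with 36 reads, at least 59.2-fold, novel_421 with 23, at least 37.8-fold, and novel_272 with 21, at least 34.5-fold. For novel_421, 15 of the reads were in CP_7 replicate 2, and the bound was 23.0-fold without it. MiR-31, found in many mesenchymal cells, had 20 reads in CP_7 and 0 in CC, at least 32.9-fold higher. Of these, 13 were in CP_7 replicate 3, and the bound was 15.4-fold without it and 51.7-fold without CP_7 replicate 2. In the other direction, the most reads without a read in CP_7 were 43, for the white blood cell miRNA miR-223, at least 2.90-fold higher in CC. These miRNAs were picked out after their values were seen.

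The 5 smallest differences among close miRNAs whose mean was at least 50 reads in each group were those of miR-30c (0.01), miR-148b (0.02), miR-23a (-0.03), miR-193a-5p (0.03) and miR-103 (0.05). MiR-23a stood at 2430.0, 2469 and 2432 in CC and 2382, 2346 and 2779 in CP_7. MiR-103, often used as a reference for other miRNAs, stood at 650.0, 647 and 604 in CC and 644, 641 and 552 in CP_7. In both the values of CC and CP_7 interleaved. MiR-30c stood at 175, 180.1 and 154 in CC and 136, 203 and 173 in CP_7 and miR-193a-5p at 139, 154 and 146 in CC and 119, 141 and 174 in CP_7, with the CP_7 libraries spread on both sides of CC. The equality depended on the scaling: with upper-quartile factors all 5 were called higher in CC, with log2 differences from 0.49 to 0.57, and with library size only all 5 were called lower, from -1.42 to -1.34. Without CP_7 replicate 2 all 5 were called higher, up to 0.72 for miR-30c.

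**Figure D2:**
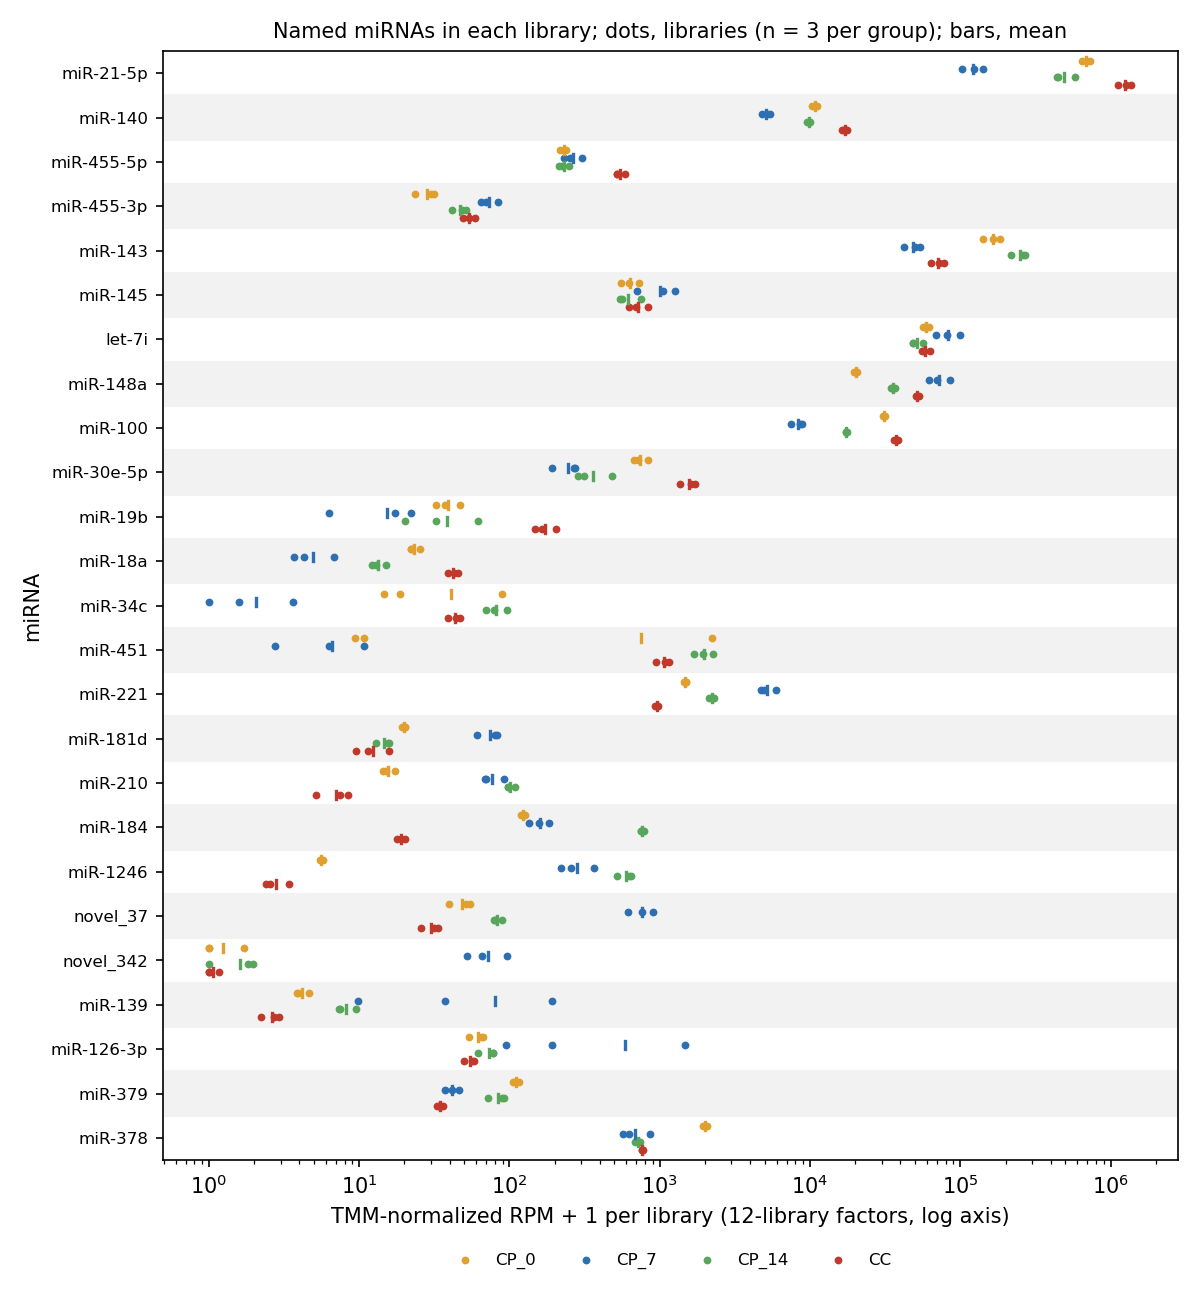
TMM-normalized RPM plus 1 (horizontal log axis, 12-library factors) of 25 of the named miRNAs in each of the 12 libraries, where dots are libraries, short bars the mean of 3, and colours the groups CP_0, CP_7, CP_14 and CC. For miR-21-5p, miR-140, miR-100 and miR-18a CP_7 lies farther from CC than CP_0 and CP_14 do, and for miR-379 it lies nearest.

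Seen against the other days of induction, day 7 was the point farthest from chondrocytes. Over 284 miRNAs tested in all 12 libraries, the root mean square of the log2 differences between group means and CC was 0.967 at CP_0, 1.72 at CP_7 and 1.30 at CP_14, while pairs of CC libraries differed by 0.269 to 0.356. For single pairs of libraries the values ran from 0.887 to 1.26 for CP_0, from 1.68 to 1.92 for CP_7 and from 1.21 to 1.44 for CP_14, so that every CP_7 library was farther from every CC library than any CP_0 or CP_14 library was. At equal total depth the order was kept, with 1.09, 1.83 and 1.44. At least 2-fold from CC were 22.5% of the miRNAs at CP_0, 50.7% at CP_7 and 35.2% at CP_14. These distances share the CC libraries.

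The distance of each miRNA to CC, the absolute log2 difference, was compared between days with limma. At CP_7, 20 miRNAs (7.04%) were nearer to CC than at CP_0 and 109 (38.4%) were farther. Of the 109, 89 lay on the same side of CC on both days, and over all 109 CC was the lower one at CP_7 for 51 and the higher one for 58. From CP_7 to CP_14, 88 (31%) came nearer to CC and 31 (10.9%) moved farther. Values close to CC on both days are pushed by the spread toward a distance above 0.

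The miRNAs whose distance to chondrocytes fell most from day 0 to day 7 were a mixed set. MiR-2285bp, a ruminant name, had 12-library levels of 5.06, 4.81 and 4.16 in CC, 27.9, 46.1 and 37.2 in CP_0 and 13.1, 10.9 and 8.86 in CP_7, its distance going from 2.72 to 1.06 (change -1.66, adjusted p = 9.52e-05 by limma, standard error 0.23). MiR-379 of the DLK1-DIO3 cluster stood at 31.9, 33.2 and 35.3 in CC, 115, 109 and 105 in CP_0 and 36.1, 40.3 and 45.2 in CP_7 (change -1.42, adjusted p = 3.94e-06 by limma, standard error 0.13). In both, CP_7 lay between CC and CP_0 without overlapping CP_0. Both were still called lower in CC in the direct comparison with CP_7, with log2 differences of -1.31 for miR-2285bp and -0.53 for miR-379. MiR-378, from an intron of PPARGC1B, stood at 755, 763 and 777 in CC, 2074, 1988 and 1942 in CP_0 and 567, 858 and 621 in CP_7 (change -1.20, adjusted p = 0.000587 by limma, standard error 0.21). At CP_7 its values lay on both sides of CC, and it was close in the direct comparison (-0.09), with 0.43 with upper-quartile factors and 0.61 without CP_7 replicate 2. MiR-664b (change -1.12) and miR-339b (change -1.06) were the next, and both were close as well.

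Abundant miRNAs were among the 20 too. MiR-143 was at a distance of 1.20 at CP_0, 0.55 at CP_7 and 1.799 at CP_14, with CP_7 below CC and the other days above it. MiR-148a was at 1.37 at CP_0, 0.48 at CP_7 and 0.54 at CP_14, with CP_0 below CC and CP_7 above it. Of the let-7 family, let-7e, let-7f and miR-98 were nearer at CP_7 than at CP_0 and let-7b, let-7c and let-7i were farther. MiR-199a-5p was at 1.35 at CP_0, 0.82 at CP_7 and 1.70 at CP_14, and miR-125a at 0.63 at CP_0, 0.21 at CP_7 and 0.63 at CP_14. For 11 of the 20, the distance grew again to CP_14, so that CP_7 was the nearest day, and these were let-7f, miR-98, miR-125a, miR-132, miR-143, miR-199a-5p, miR-2285bp, miR-2285l, miR-379, miR-425-5p and miR-6119-5p. For the other 9, namely let-7e, miR-148a, miR-224, miR-320a, miR-339b, miR-342, miR-378, miR-378c and miR-664b, the step from CP_7 to CP_14 was not called, and none of the 20 came still nearer by that test. Without CP_0 replicate 1, only 13 miRNAs were nearer at CP_7 than at CP_0, and with library size only 12.

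Among the miRNAs farther from chondrocytes on day 7 than on day 0 were several of those with few reads in a group. Novel_342 was at a distance of 0.19 at CP_0, 6.04 at CP_7 and 0.54 at CP_14 (change from CP_0 to CP_7 5.85, adjusted p = 7.02e-08 by limma, standard error 0.35). MiR-1246 was at 1.03 at CP_0, 6.65 at CP_7 and 7.75 at CP_14 (change 5.62, adjusted p = 1.39e-09 by limma, standard error 0.20). MiR-34c was at 0.58 at CP_0, 4.60 at CP_7 and 0.90 at CP_14, with CP_0 levels of 17.8, 13.6 and 87.7 and CP_7 levels of 2.63, 0.575 and 0. The reads behind these were few in CP_7 for miR-34c and few in CC for novel_342 and miR-1246. Novel_37 was at 0.68 at CP_0, 4.64 at CP_7 and 1.46 at CP_14, and miR-139 at 0.66 at CP_0, 3.99 at CP_7 and 1.63 at CP_14. MiR-21-5p was at 0.86 at CP_0, 3.36 at CP_7 and 1.37 at CP_14 (change 2.50, adjusted p = 4.41e-08 by limma, standard error 0.14), with CC higher on every day. MiR-140 behaved alike on a smaller scale, at 0.66 at CP_0, 1.74 at CP_7 and 0.79 at CP_14 (change 1.08, adjusted p = 7.02e-08 by limma, standard error 0.064). In contrast, the distance of miR-455-5p hardly moved, at 1.24 at CP_0, 1.05 at CP_7 and 1.24 at CP_14, and was not called.

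Of the 109 that were farther at CP_7 than at CP_0, 76 came nearer again by CP_14, 30 were not called over that step and 3 moved still farther. Those 3 were miR-1246, miR-184 at 2.70 at CP_0, 3.05 at CP_7 and 5.32 at CP_14 and miR-2889 at 0.89 at CP_0, 3.18 at CP_7 and 4.45 at CP_14. MiR-210 stayed far, at 1.19 at CP_0, 3.48 at CP_7 and 3.89 at CP_14, without a call from CP_7 to CP_14. As both steps use the CP_7 libraries, a high or low value in these appears in both counts. By family, the share of tested members farther at CP_7 than at CP_0 was 8 of 12 for the miR-17 to miR-92 clusters, 5 of 7 for the miR-199 cluster, 5 of 8 for the miR-23, miR-27 and miR-24 clusters, 4 of 5 for miR-99, miR-100 and miR-125, 2 of 4 for miR-181, 2 of 4 for miR-29, 8 of 18 for DLK1-DIO3 and 2 of 2 for miR-221 and miR-222, beside 109 of 284 over all miRNAs. For the muscle list it was 1 of 6, for the family of miR-148 and miR-152 it was 0 of 5, and for miR-10 it was 0 of 2.

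**Figure D3:**
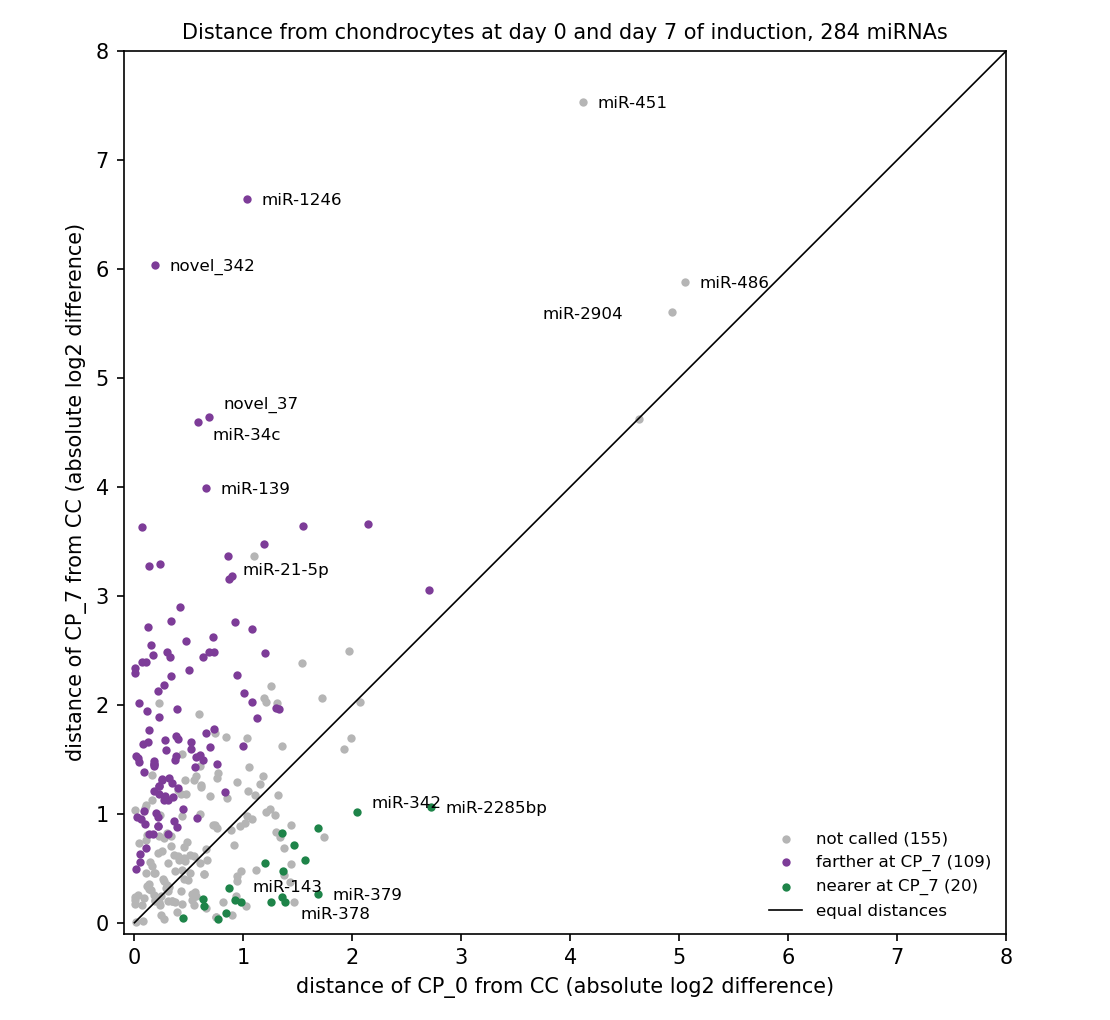
Distance of CP_7 from CC (vertical axis) against distance of CP_0 from CC (horizontal axis), both as absolute log2 differences of 12-library TMM-normalized RPM plus 1, for the 284 miRNAs tested. Purple marks the 109 farther at CP_7, green the 20 nearer and grey the 155 not called, and more points lie above the line of equal distances than below it.

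Further lists gave mixed counts, to be set beside 29% higher, 38.4% lower and a median of -0.09 over all miRNAs. The family of miR-15 and miR-16, which restrains the cell cycle, had 4 of 9 tested members higher and 2 lower, and with library size only 0 higher and 6 lower. The miR-26 family had 1 of 3 names lower, miR-26b (-1.30), while miR-26a, which shares its reads with miR-26c, was close (0.17), though called higher with the RLE, upper-quartile and 12-library factors, with the library size without miR-21-5p and without CP_7 replicate 2, and lower with library size only. Of miR-34 and miR-449, miR-449a was higher (0.73) besides miR-34c, but not without CC replicate 2, CC replicate 3 or CP_7 replicate 1, and with library size only it was -0.58, not called, while miR-34a was close (-0.26). Of the miRNAs within Hox clusters, miR-10a and miR-10b were tested and not called, except miR-10a, lower with library size only. Of 93 names of the ruminant lineage, such as miR-2285, 20 were tested, 4 were higher and 9 lower, with a median of -0.41. The median was 0.05 with upper-quartile factors and 0.09 over the 26 tested without CP_7 replicate 2. Of the 70 novel_ names 14 were tested, 3 were higher and 6 lower, with a median of -0.52. Without CP_7 replicate 2, 13 were tested, 5 were higher and 3 lower, with a median of 0.70. Members of these lists named here beyond those picked by the rule were taken up after their values had been seen.

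Markers of other cell types were summed in each library as TMM-normalized RPM. Their calls are to be set beside 29% higher and 38.4% lower over all miRNAs. For red blood cells, all 3 listed miRNAs had reads in CC or CP_7 and both tested ones were higher in CC. Their sum was 2457, 2459 and 2078 in CC and 14.04, 93.6 and 26.64 in CP_7, most of it miR-486 in CC, and miR-144 had 0, 2 and 0 reads in CC and 0 in CP_7. In RPM without TMM factors the red blood cell sum was 1435 ± 42 (SD, n = 3) in CC and 4389 ± 847 in CP_14. In CP_0 it was 11.77, 12.2 and 4192. For white blood cells, 4 names had reads and 1 was tested, miR-142-5p, the most abundant. It was not called but was higher in CC without CP_7 replicate 2 (2.12). In that fit 3 of the names were tested and all 3 were higher, with a median of 1.78, beside 120 of 300 over all miRNAs. Each of the 3 passed the filter there only through CC, so that this count does not describe the list. The 4 names summed to 14.78, 13.52 and 11.12 in CC and 0.826, 11.23 and 7.46 in CP_7, with miR-223 at 0 in CP_7. For endothelium, the arms of miR-126 summed to 47.8, 60.0 and 57.7 in CC and 119.8, 207.8 and 1772 in CP_7, and 1 of 2 was called, lower in CC. The epithelial names summed to 26.1, 21.2 and 19.2 in CC and 2.48, 4.37 and 9.59 in CP_7, with 6 names with reads, 2 tested and both of these, miR-200a and miR-200b, higher in CC. Both passed the filter only through CC, so that their calls do not describe the list. In CC the most abundant was miR-200a, and miR-429 and miR-141 were at 0 in CP_7. Most of the sum in CP_7 replicate 3 was miR-200c, not tested, with 19, 11 and 9 reads in CC and 1, 4 and 8 in CP_7. The neural names summed to 190.9, 204.1 and 201.7 in CC and 2240, 230.9 and 214.1 in CP_7.

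CP_7 replicate 1 stood out among the neural names. There miR-9-5p had 529, 577 and 624 reads in CC and 1430, 111 and 76 in CP_7, and miR-128 had 622, 591 and 706 reads in CC and 1248, 242 and 114 in CP_7. Neither was called, and of 3 tested names only miR-9-3p was, lower in CC (log2 difference -2.64). MiR-124a, the defining neural miRNA, had 0, 1 and 0 reads in CC and 9, 0 and 0 in CP_7, and the 9 reads were again in CP_7 replicate 1. The liver miRNA miR-122 had 55, 30 and 58 reads in CC and 45, 55 and 43 in CP_7, and its level was 9.03, 5.20 and 8.72 in CC and 37.2, 34.3 and 45.8 in CP_7, lower in CC, with a log2 difference of -2.24 (adjusted p = 0.000282 by limma, standard error 0.26). The part of these cells or their RNA in the differences between CC and CP_7 was not tested.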

How the data were processed

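The authors deposited, for each of the 12 libraries, RPM values in columns headed tpm. These are reads per 1000000 reads on the miRNAs of the list, with no factor for composition. The submitters' notes name CASAVA, bcl2fastq 1.8.4 and Bowtie, while the trimming, the counter and the version of the database were not given in the sources used here. Deer reads carry cattle (bta-) names.

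Whole reads were recovered from the step between values in a library, and all of them came within 0.01 of a whole read. The test was the two-sided one of limma with its trend option, on log2 of TMM-normalized RPM with a pseudocount of 1. MiRNAs were first filtered by edgeR's filterByExpr (minimum count 10, minimum total 15). That minimum count holds for a library of median size, so that fewer reads than 10 sufficed in a CP_7 library and more were needed in CC. P was adjusted by Benjamini-Hochberg over all tested miRNAs, with 0.05 as the threshold. The versions were DESeq2 1.42.0, edgeR 4.0.16, limma 3.58.1 and R 4.3.3, and the procedure was tested on simulated data. For distances, the 12 libraries were fitted together, and the absolute log2 difference from CC at a day minus that at another day was tested as a contrast, with the sign of each difference taken from the group means.

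The named miRNAs are those of cartilage, miR-143, miR-145, both arms of miR-21, the most abundant ones, the 10 largest differences in each direction among called miRNAs without overlap, the 5 largest changes of distance in each direction, the 5 smallest differences among close miRNAs and the markers of other cell types. A mean of 50 reads was required in CC or CP_7 for the differences, in a group for the distances and in both groups for the close ones. Members and lists were chosen with earlier results of these data known. In this choice names that share their reads within 1%, at a mean of at least 10 reads, count as 1 miRNA, while the counts of calls are of names. Alternatives were other scalings, edgeR, DESeq2, other pseudocounts and filters, equal depth, a replicate block and leaving out each library. Leaving out 5 miRNAs with near-constant reads, and thinning the reads besides miR-21-5p to the same number for the count of miRNAs found, were added after seeing the data. Intervals and floors cover counting error only.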

Additional observations from a re-analysis of the deposited data

How the results depend on the processing

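Over the 14 alternatives that change a scaling, test, filter, pseudocount, depth or block, the log2 differences of the named miRNAs kept their direction and their side of the threshold in 554 cases. In 26 cases they passed the threshold only under the alternative, in 18 they no longer passed it, in 12 the direction of a value called under TMM or under the alternative changed, and in 19 a value called under neither changed sign.

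With library size only, 20 miRNAs were higher in CC, 191 lower and 41 close, 12 were nearer at CP_7 than at CP_0 and 144 nearer at CP_14 than at CP_7. The log2 difference changed sign to -0.62 for miR-455-5p, -1.11 for miR-143, -0.054 for miR-21-3p, -1.19 for miR-27b, -1.38 for miR-30c, -1.36 for miR-148b, -1.35 for miR-193a-5p and -1.34 for miR-103. It became 0.43 for miR-378 and 0.49 for miR-23a with upper-quartile factors, 0.25 for miR-23a with factors over 12 libraries and -0.35 for miR-148b at equal depth. At equal total depth 46 were higher, 68 were farther at CP_7 than at CP_0, 56 nearer at CP_14 and 19 farther, where fewer miRNAs pass the filter. With at least 2-fold required, 52 were higher, 6 nearer and 70 farther at CP_7, and 48 nearer and 15 farther at CP_14. With a mean of 50 reads required, 75 were higher and 67 lower. Close miRNAs numbered 103 with a pseudocount of 5 RPM, 172 with no filter and 25 within 1.5-fold, and edgeR gave no interval for them. Except where the construction shows it, the cause was not tested.

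With each library left out in turn and 224 to 300 miRNAs tested, 61 to 120 were higher, 66 to 84 lower, 32 to 56 close and 13 to 27 nearer at CP_7. The log2 difference of miR-378 ran from -0.11 to 0.61 and that of miR-23a from -0.0375 to 0.51. A group left with 2 libraries is assumed to vary like the others.

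With a replicate block, as if libraries of the same number were paired, 85 were higher, 104 lower and 66 close, 17 were nearer and 107 farther at CP_7, and 81 nearer and 27 farther at CP_14.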
